A study of Arabidopsis thaliana with 10 samples.

Results

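The ex1/flu line of Arabidopsis thaliana, in which the flu mutation is combined with loss of EXECUTER1 (EX1), was compared with Columbia wild type by the 4 of 10 ATH1 microarrays that held these genotypes, 2 arrays each. The other 6 arrays held flu, ex2/flu and ex1/ex2/flu, also 2 each, and entered the fit because they help to estimate the spread between replicates. In ex1/flu the second EXECUTER gene, EX2, is intact, whereas ex1/ex2/flu lacks both EXECUTER genes and flu and ex2/flu keep EX1. Each array held RNA from rosette leaves of 5 pooled mature plants. All plants grew on soil in continuous light until bolting began, spent 8 h in darkness and were harvested 30 min after the light was switched on again.

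The ex1 allele is the T-DNA insertion line SALK 002088 and the ex2 allele is SALK 012127, each a single insertion line. The flu allele, flu1-1, arose in Landsberg erecta and was backcrossed 5 times to Columbia before the crosses, so ex1/flu may still carry Landsberg sequence around FLU on chromosome 3. Wild type carries neither the insertions nor flu. A difference between ex1/flu and wild type can therefore come from the flu mutation, from the loss of EX1, from the remaining foreign sequence or from earlier growth. The 4 arrays alone cannot tell these apart.

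FLU is a plastid protein that holds back the synthesis of chlorophyll precursors in the dark. Without it, protochlorophyllide builds up in darkness and acts as a photosensitizer when light returns, releasing singlet oxygen inside the plastid. EX1 and EX2 are related plastid proteins that pass the singlet oxygen signal on to nuclear genes, and EX1 is known as the stronger contributor. Known early targets of the signal include stress transcription factors, calcium-binding proteins and genes of the wound and pathogen response.

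The arrays gave a signal for 22746 probe sets, of which 14435 were tested. The median signal per array was 158 to 171, and the number of arrays limits the precision. The 2 ex1/flu arrays correlated at 0.973 across probe sets, the lowest of the 5 genotypes, and their median replicate SD on the log2 scale was 0.181, against 0.132 in wild type. With 2 arrays per genotype the smallest two-sided p of an exact permutation test is 0.333, and limma was therefore used, fitted over the whole array. Levels below are log2 signals, differences are ex1/flu minus wild type on the log2 scale with limma's standard error (SE, n = 2 arrays per genotype), and a probe set is called at a Benjamini-Hochberg adjusted p under 0.05. Of the leaf markers, RCA, the activase of Rubisco, was at 14.25 and 14.01 in ex1/flu and at 13.90 and 14.25 in wild type. The other tested leaf marker, LHCB4.2, was lower, at 12.74 and 12.87 in ex1/flu against 13.88 and 14.05 in wild type, and is described with the photosynthesis genes. The root marker EXPA7 lay below the filter level on 10 of 10 arrays. Of the 6 rosette leaf, 6 flower and 5 root markers, 2, 0 and 1 had a probe set assigned to them, so the check on other tissues is thin.

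The EX1 probe set (AT4G33630) was read first. It was at 7.95 and 7.88 in ex1/flu, against 9.24 and 9.59 in wild type. The groups did not overlap, and EX1 fell by 1.50 ± 0.17 (limma adjusted p 0.000165), to 0.354 of the wild type signal. The remaining ex1/flu signal was above the filter level, and where the insertion lies relative to the probes is not given in the sources used here. For FLU and EX2 no probe set was assigned by the annotation used, so the flu and ex2 alleles are taken from the labels and were not checked on the arrays.

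Leaves of ex1/flu still differed from wild type in both directions. In ex1/flu 228 probe sets were called against wild type (1.58%), 104 higher (0.72%) and 124 lower (0.859%). By at least 2-fold, 58 were higher and 79 lower. The median difference over all tested probe sets was -0.02. Only 91 of the called probe sets (42 higher, 49 lower) were assigned to 1 gene, since the annotation used did not list 133 of them and gave 4 several genes. The size of the count depends on the wild type arrays, since it fell when either was left out, and on the processing. Without the filter on dim probe sets it was 147, 74 higher and 73 lower, and without the intensity trend 151, 70 higher and 81 lower. The excess of decreases is not firm. Decreases no longer outnumbered increases without either wild type array, without the first ex1/flu array or without the filter. In bulk leaf RNA, a change in the share of a cell type and a change in RNA per cell cannot be told apart.

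The gene with the largest increase among those picked was AT2G20870. Its signal was 9.84 and 10.002 in ex1/flu, against 7.81 and 7.29 in wild type, a difference of 2.37 ± 0.21 or 5.17-fold (limma adjusted p 1.07e-05). AT3G09540, a pectin lyase-like protein, had 9.47 and 9.15 in ex1/flu and 7.48 and 7.21 in wild type. AT3G28500, an acidic protein of the large cytosolic ribosomal subunit, had 10.50 and 10.10 in ex1/flu and 8.56 and 8.45 in wild type. These genes rose by 1.96 ± 0.23 and 1.79 ± 0.17 (limma adjusted p 0.00019 and 2.51e-05). Their ex1/flu arrays stood well clear of wild type, but not of ex1/ex2/flu, where AT2G20870 was at 9.84 and 10.07, AT3G09540 at 9.05 and 9.44 and AT3G28500 at 10.61 and 10.48. In ex1/flu minus ex1/ex2/flu the 3 genes differed by -0.03, 0.06 and -0.25, with 95% intervals of -0.48 to 0.41, -0.43 to 0.56 and -0.61 to 0.12.

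Further genes picked as highest included STZ and TIR-domain genes. STZ (AT1G27730), also known as ZAT10, is a transcriptional repressor of the zinc-finger class that responds to many abiotic stresses. It had a signal of 11.18 and 11.48 in ex1/flu, against 9.82 and 9.58 in wild type. It rose 3.09-fold (1.63 ± 0.15, limma adjusted p 1.75e-05). AT1G05575 had 9.24 and 9.83 in ex1/flu and 7.53 and 7.31 in wild type and rose 4.34-fold (2.12 ± 0.23, limma adjusted p 8.07e-05). The lower ex1/flu array was above both wild type arrays for each of these genes. AT1G72920, which encodes a protein with a TIR domain as found in immune receptors, had 9.50 and 9.35 in ex1/flu and 7.87 and 7.50 in wild type, and its neighbour AT1G72940, of the same kind, had 10.47 and 9.99 in ex1/flu and 8.60 and 8.90 in wild type. They rose 3.34-fold and 2.79-fold (limma adjusted p 3.16e-05 and 0.00019).

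The remaining genes picked as highest rose by 0.97 to 1.57 on the log2 scale. AT4G27280, an EF-hand calcium-binding protein, was the brightest of them, with 12.29 and 12.50 in ex1/flu against 11.39 and 11.11 in wild type, and rose by 1.15 ± 0.13 (limma adjusted p 0.000182). AT2G32030, an acetyltransferase of the GNAT type, rose by 1.31 ± 0.19, and AR781 rose by 1.47 ± 0.18. AT4G29780, AT1G76600, AT4G24380 and AT2G39650 rose by 1.57, 1.47, 1.33 and 0.97. AT2G24600, an ankyrin repeat protein, rose by 1.09 ± 0.21, but its ex1/flu arrays, at 10.12 and 9.33, differed from each other by more than those of most genes named here. Without the higher ex1/flu array its difference was 0.70 and was not called, and the call was also lost without either wild type array. The call of AT2G39650 was lost without the first wild type array.

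**Figure D1:**
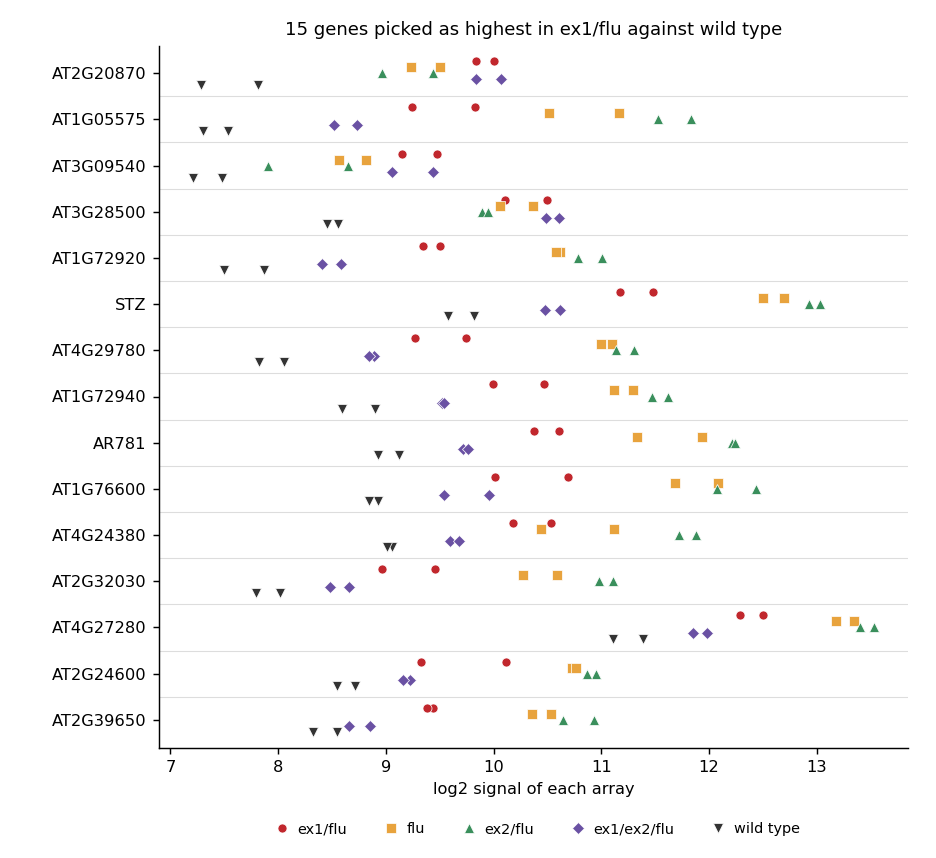
Log2 signal of each array (horizontal axis) for the 15 genes picked as highest in ex1/flu against wild type, with 1 symbol per array and 2 arrays per genotype. In all 15 genes both ex1/flu arrays (circles) lie above both wild type arrays (downward triangles). For STZ, AT1G72920 and most others the flu and ex2/flu arrays lie higher still. For AT2G20870, AT3G09540 and AT3G28500 the ex1/ex2/flu arrays lie as high as those of ex1/flu. In ex1/ex2/flu 9 of the 15 genes were called higher than in wild type.

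The 15 genes fell into these patterns when ex1/flu was set directly against flu, a comparison that shares the ex1/flu arrays on which the genes were picked. In that comparison 197 probe sets were called (1.36%), 32 higher and 165 lower in ex1/flu (1.14% lower). Among the 15 genes, 11 were lower in ex1/flu than in flu, by 0.87 to 1.54 on the log2 scale. STZ was at 11.18 and 11.48 in ex1/flu and at 12.50 and 12.69 in flu, and AT4G29780 at 9.75 and 9.27 in ex1/flu and at 10.997 and 11.10 in flu. Their differences from flu were -1.27 and -1.54 (limma adjusted p 0.000487 for both). The 4 genes that were not called lower were AT2G20870, AT3G09540, AT3G28500 and AT4G24380, with differences from flu of 0.55, 0.62, 0.09 and -0.42. The count of 197 rests on the flu arrays, since it was 95 without the first and 58 without the second.

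Whether EX2 accounts for any of the increase is addressed by ex1/flu against ex1/ex2/flu, in which both lines lack EX1 and EX2 is intact only in the first. The test called 5 probe sets (0.0346%), all higher in ex1/flu, and none of them was assigned to 1 gene. At an unadjusted p under 0.05 there were 786 (5.45%), 375 higher and 411 lower. The count of 5 is not firm: it was 0 without either flu array, and 17, of which 10 were higher and 7 lower, without the first ex1/flu array. Probe set 248448_at was at 9.80 and 10.07 in ex1/flu and at 8.53 and 8.32 in ex1/ex2/flu, a difference of 1.51 ± 0.23 (limma adjusted p 0.0381). The other 4 were higher by 1.06 to 1.37 at the same adjusted p. Of the 5, 254805_at was the only one not called against wild type, with 7.78 and 8.24 in ex1/flu and 7.77 and 7.79 in wild type.

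For single genes this comparison was imprecise. Among the 15 genes picked above, 12 had a 95% interval above 0 for ex1/flu minus ex1/ex2/flu, and 0 were called after adjustment over all probe sets. Of the same 15, 9 were called higher in ex1/ex2/flu than in wild type, against 56 of all 14435 tested probe sets. STZ was among the 9, with a difference of 0.85 (limma adjusted p 0.0086). That comparison uses the wild type arrays on which the genes were picked. The 11 genes that were lower than in flu differed from ex1/ex2/flu by 0.48 to 0.93. STZ was at 11.18 and 11.48 in ex1/flu and at 10.62 and 10.48 in ex1/ex2/flu, a difference of 0.78 with an interval of 0.46 to 1.10 (limma adjusted p 0.101). AT1G72920 differed by 0.93, with an interval of 0.57 to 1.29 (limma adjusted p 0.0724). The cell-wall enzyme XTH19, described below, differed by 1.02, with an interval of 0.66 to 1.39 (limma adjusted p 0.0564). The ex1/flu arrays that enter these differences are those on which the genes were picked as high, which favours positive values. WRKY6 and WRKY53 were picked on the same arrays, but for the largest difference from wild type in either direction among the listed WRKY factors. They differed from ex1/ex2/flu by -0.52 and 0.54. Their intervals were -1.26 to 0.22 and 0.14 to 0.94, and neither was called. The median of the 3 tested WRKY factors in this comparison was 0.54. The second ex1/flu array of WRKY6, at 5.74, was below the filter level.

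A group of genes was also picked on a contrast of flu with ex1/ex2/flu, whose means do not include the ex1/flu and wild type arrays. These arrays enter the choice through the shared filter and error estimate. Of all tested probe sets 2.51% were called higher in flu than in ex1/ex2/flu, which differ in the EXECUTER genes, and 216 of these, called EXECUTER-dependent here, were higher by at least 2-fold. In ex1/flu against wild type, 63 of them were higher (29.2%, against 0.72% of all tested), 13 were lower (6.02%, against 0.859%) and 140 were not called. Their median difference was 0.48, with quartiles of 0.02 and 0.90, and 163 of 216 were positive, whereas over all tested probe sets the median was -0.02. The 63 also make up 63 of the 104 probe sets called higher. Read array by array, the median difference of the 216 from the wild type mean was 0.45 on the first ex1/flu array and 0.50 on the second. The number called higher was 33 without the second wild type array and 38 without the first. The set itself depends on the arrays that define it: without the second ex1/ex2/flu array it held 120 probe sets, of which 54 were higher and 3 lower, and without the second flu array 144, of which 52 were higher and 14 lower. Without the first flu array it held 171, with 58 higher and 4 lower, and without the first ex1/ex2/flu array 298, with 63 higher and 17 lower. The median difference was lowest without the first ex1/ex2/flu array, at 0.34, and highest without the second, at 0.70.

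Of the 216, 95 were assigned to 1 gene. The highest in ex1/flu against wild type included genes that were below the filter level (each array's 40th percentile) in wild type, so that only a lower bound can be given, the ex1/flu mean minus the level of the filter. AT2G22880, a VQ-motif protein, had 7.37 and 8.06 in ex1/flu and 5.36 and 3.09 in wild type and was at least 1.22 higher on the log2 scale (limma adjusted p 0.00106). AT5G66650, a calcium uniporter of organelle membranes, had 8.62 and 8.13 in ex1/flu and 6.28 and 6.07 in wild type and was at least 1.88 higher (limma adjusted p 0.000112). AT1G14480, an ankyrin repeat protein, was at least 1.03 higher. AT1G05575, AT1G72920 and STZ completed the 6 highest. In ex1/ex2/flu, which lacks both EXECUTER genes, AT5G66650, AT1G05575, AT1G72920 and STZ were also called higher than in the same wild type arrays. The differences were at least 1.23 for AT5G66650, and 1.21, 0.81 and 0.85 for the others in that order. In ex1/flu minus ex1/ex2/flu AT5G66650 differed by 0.65 (limma adjusted p 0.819).

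Other members were lower than wild type in ex1/flu. CHI (AT2G43570), a chitinase of the pathogen response, had 9.82 and 10.27 in ex1/flu and 11.76 and 11.96 in wild type and fell by 1.81 ± 0.22 (limma adjusted p 0.000234). AT1G68620, an alpha/beta hydrolase, had 7.02 and 7.83 in ex1/flu and 9.60 and 9.10 in wild type and fell by 1.93 ± 0.28 (limma adjusted p 0.00137). For both genes ex1/flu differed from wild type about as much as ex1/ex2/flu did, whose differences from the same wild type arrays were -1.77 and -1.98. Both were also called lower in ex2/flu, which keeps EX1, with differences of -2.57 and -2.14. In flu the differences were -0.68 and -0.52 and were not called. AT1G26390, a berberine bridge enzyme-like protein, fell by 1.10 ± 0.25 (limma adjusted p 0.0375), a call that was lost without either wild type array. AT3G28510, an AAA-type ATPase, was below the filter level on both ex1/flu arrays, at 5.97 and 5.42, against 7.23 and 6.94 in wild type, and was not called (limma adjusted p 0.15). EX1 itself and AT3G22240, described below, were the other members among the 6 lowest.

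**Figure D2:**
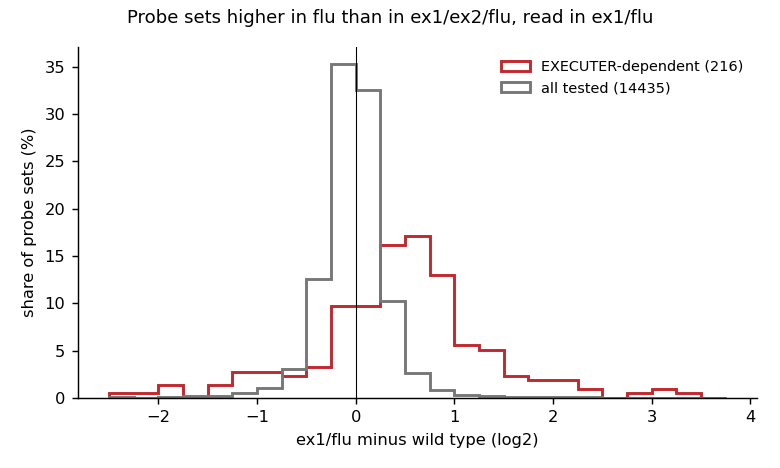
Share of probe sets (vertical axis, %) by the log2 difference of ex1/flu minus wild type (horizontal axis), for the 216 probe sets called at least 2-fold higher in flu than in ex1/ex2/flu and for all 14435 tested. The 216 centre on 0.48 and the tested probe sets on -0.02, and values beyond the axis are drawn in the end bins.

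Gene lists by role were then read one by one, by counts and medians beside the background of 1.17% called among probe sets assigned to 1 gene (0.539% higher, 0.629% lower). Of 266 listed loci in 22 lists, 65 had a probe set in the annotation and 61 were tested, so most lists are covered by a few members. The singlet oxygen reporters had 4 of 10 members tested, with a median of 0.21. STZ was called. AT3G01830, a calmodulin-like protein, was at 9.12 and 9.64 in ex1/flu and 9.15 and 8.98 in wild type, with groups that overlap and a difference of 0.32 ± 0.22. AT5G64870, a flotillin-like protein, differed by -0.36 ± 0.28. AT3G28580, an AAA-type ATPase, was below the filter level on both arrays of both genotypes and has no reading here.

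Among the listed WRKY and ERF factors none of the tested members passed the test. Of 17 stress WRKY factors 3 were tested and 0 called. WRKY53, a regulator of leaf senescence and defence, was at 10.14 and 9.95 in ex1/flu and 9.74 and 9.24 in wild type, a difference of 0.55 ± 0.19 (limma adjusted p 0.232). The groups did not overlap, but the difference did not pass the test across all probe sets. WRKY22 and WRKY6 differed by 0.36 ± 0.23 and -0.40 ± 0.35. WRKY53 and WRKY6 were lower in ex1/flu than in flu, by -1.15 and -1.60 (limma adjusted p 0.00413 and 0.0299). ORA47, an ERF-type activator of jasmonate synthesis, was the only ethylene-class factor tested, and it had 6.80 and 6.65 in ex1/flu against 6.51 and 6.23 in wild type, where it was below the filter level.

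Among calcium and kinase genes, 1 of the 4 tested was called, AT5G66650. The calmodulin-like genes CML37 and CML38 had differences of 0.67 ± 0.29 and 0.62 ± 0.31 (limma adjusted p 0.398 and 0.493). The TIR-domain genes of chromosome 1 had 3 of 6 tested members called higher, with a median of 0.74. Besides AT1G72920 and AT1G72940 this was AT1G72900, at 9.59 and 9.40 in ex1/flu and 8.81 and 8.67 in wild type (0.76 ± 0.17, limma adjusted p 0.0361), whose call was lost without either wild type array or without the first ex1/flu array. Of the others, AT1G66090 differed by 0.59, AT1G57630 by -0.81, and AT1G72950 was below the filter level in both genotypes. AT1G72900, AT1G72920, AT1G72940 and AT1G72950 are close neighbours on the chromosome and encode proteins of one kind, so they were not read as independent of each other.

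Among precursors of stress peptides 1 of 4 tested was called. AT4G37290, which encodes the precursor of a secreted immune peptide of the PIP family, was at 8.22 and 8.82 in ex1/flu and 7.10 and 7.44 in wild type and rose by 1.25 ± 0.22 (limma adjusted p 0.00703). The groups did not overlap, but the call was lost without the first wild type array and without the second ex1/flu array. AT3G10930 differed by 0.77 ± 0.21 (limma adjusted p 0.0942). AT4G28460 was at 5.16 and 6.22 in ex1/flu, both below the filter level, and at 7.48 and 6.38 in wild type. The U-box ubiquitin ligases, which restrain immune signalling, had 0 of 3 called. PUB23 had a difference of 0.63 ± 0.23 and PUB24 of -0.16 ± 0.17, and PUB22 was below the filter level in both genotypes.

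Jasmonate and oxylipin genes had 2 of 5 tested members called higher and 0 lower, with a median of 0.75. THI2.1, a thionin with antimicrobial activity, was at 8.10 and 8.35 in ex1/flu and 6.84 and 7.26 in wild type and rose by 1.18 ± 0.26 (limma adjusted p 0.0306). DLAH, a lipase related to DAD1 of jasmonate synthesis, was at 7.75 and 6.90 in ex1/flu and at 6.26 and 5.96 in wild type, where it was below the filter level, and was at least 0.82 higher (limma adjusted p 0.0324). PDF1.2, a defensin, was at 10.82 and 11.31 in ex1/flu and 9.97 and 10.65 in wild type and was not called (limma adjusted p 0.27). Both called members are near the threshold, and each lost its call without either wild type array. The salicylate list had 2 tested members, of which CHI fell and SAG101 differed by -0.12 ± 0.24.

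Cell-wall enzymes of the touch-responsive XTH group had 1 of 2 tested members called. XTH19 was at 8.74 and 8.56 in ex1/flu and at 7.84 and 7.58 in wild type, and rose by 0.93 ± 0.17 (limma adjusted p 0.00955). In flu it was at 8.21 and 8.11 and in ex1/ex2/flu at 7.72 and 7.53, so the ex1/flu arrays were the higher in both pairs. In ex2/flu it was higher still, at 9.36 and 9.475, and ex1/flu minus ex2/flu was -0.77 (limma adjusted p 0.0263). The call against wild type was lost without the second wild type array and without the first ex1/flu array. XTH18, its neighbour, was at 7.68 and 7.64 in ex1/flu and 7.98 and 7.34 in wild type, with no difference to 2 decimals (0.00 ± 0.28).

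Several groups showed no called member. These were the 5 tested genes of peroxide and superoxide scavenging (median 0.07), the 8 of tetrapyrrole synthesis (median -0.01), the 4 of cold, drought and abscisic acid (median 0.02), the 4 of dark starvation and leucine breakdown (median 0.25), the 2 of detoxification and the clock gene GI. PORB, the enzyme that reduces protochlorophyllide in the light, was at 12.46 and 12.41 in ex1/flu and 12.83 and 12.79 in wild type, a difference of -0.37 ± 0.12 (limma adjusted p 0.217). HEMA2, of the first committed step of tetrapyrrole synthesis, differed by -0.37 ± 0.25. The thylakoid and stromal ascorbate peroxidases TAPX and SAPX differed by 0.07 ± 0.14 and -0.17 ± 0.19, and the peroxiredoxin AT3G11630 by 0.20 ± 0.11. In the starvation list MCCA differed by 0.55 ± 0.26 and IVD by 0.39 ± 0.25. COR15A and LTI30 of the cold list differed by 0.26 ± 0.18 and -0.31 ± 0.26. GSTU25 was below the filter level on both arrays of both genotypes, and UGT73B5 on both arrays of ex1/flu. The heat shock list had 0 tested members.

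**Figure D3:**
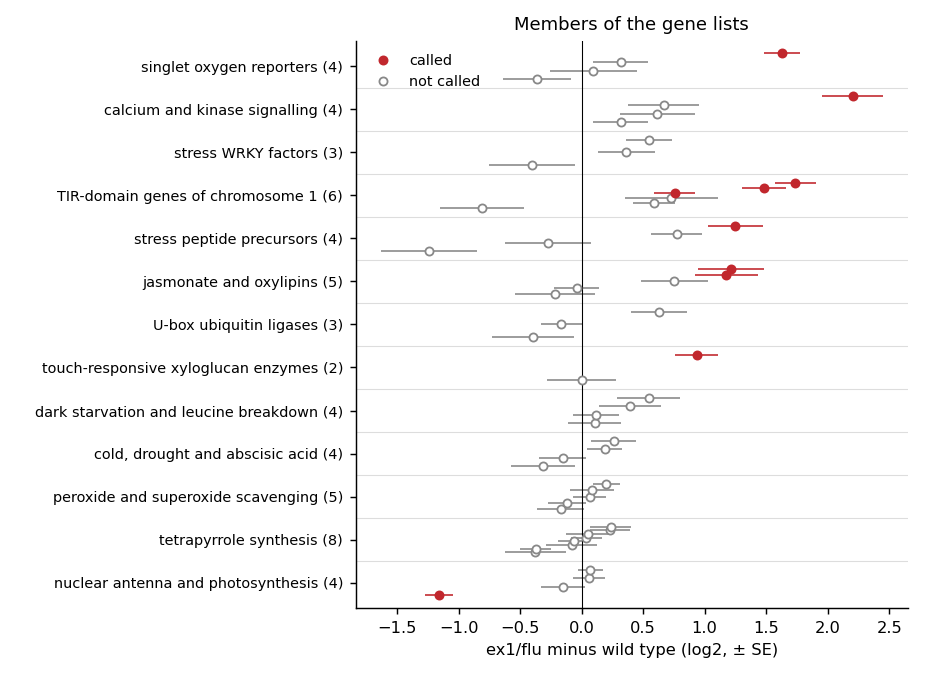
Log2 difference of ex1/flu minus wild type (horizontal axis) with limma's SE for the tested members of 13 gene lists, the number of tested members in parentheses. Filled points were called and open points were not. The points are measured differences, also for AT5G66650 and DLAH, which were below the filter level in wild type and for which the text gives bounds. The called decrease is LHCB4.2, at -1.16.

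Photosynthesis genes of the nucleus had 1 of 4 tested members called. LHCB4.2, one of the genes for the CP29 antenna protein of photosystem II, was at 12.74 and 12.87 in ex1/flu and at 13.88 and 14.05 in wild type and fell by 1.16 ± 0.12 (limma adjusted p 3.82e-05). Its paralogs LHCB4.1 and LHCB4.3 differed by 0.07 ± 0.10 and -0.15 ± 0.18. LHCB4.2 lies on chromosome 3 within 4 Mb of FLU, and its values are taken up again with that region. Of 69 plastid-encoded probe sets 1 was called (1.45%, against 1.17% of all tested probe sets of 1 gene). This was rps19, for a protein of the small plastid ribosomal subunit, at 12.88 and 13.01 in ex1/flu and 12.40 and 12.27 in wild type (0.61 ± 0.11, limma adjusted p 0.0109). The call was lost without the filter, the intensity trend, the second wild type array or the second ex1/flu array. In flu, ex2/flu and ex1/ex2/flu rps19 differed from the same wild type arrays by 0.49, 0.46 and 0.47. The median of the 69 was 0.11 and 50 were positive. In 31 gene families of at least 5 tested loci, 2 members were called, where 1.17% of all tested probe sets of 1 gene were called. They were XTH19, 1 of 5 tested in its family, and the glucosyltransferase gene UGT88A1, 1 of 25. The 2 calls were not read as a result about the families.

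Outside the lists, the strongest decrease belonged to AT3G22240. It stood at 7.36 and 7.62 in ex1/flu, against 14.37 and 14.24 in wild type. The fall of 6.82 ± 0.33 (limma adjusted p 1.12e-08) left 0.0089 of the wild type signal. The flu arrays, at 14.05 and 12.56, were closer to wild type, whereas ex2/flu, at 7.37 and 7.21, and ex1/ex2/flu, at 7.24 and 6.73, were at the level of ex1/flu. AT3G19515 had 5.75 and 5.48 in ex1/flu, below the filter level, against 9.67 and 9.51 in wild type, and was at least 3.11 lower (limma adjusted p 6.35e-06). It was below the filter level in every line with the flu mutation, with 5.40 and 4.80 in flu.

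The other genes picked as lowest fell by 1.201 to 1.43 on the log2 scale. AT4G00700, a protein with calcium- and lipid-binding C2 domains, had 7.51 and 7.65 in ex1/flu and 9.11 and 8.87 in wild type. SAL2, a phosphatase of the inositol and nucleotide type, had 8.23 and 8.86 in ex1/flu and 9.99 and 9.79 in wild type. AT1G76960 had 9.59 and 10.13 in ex1/flu and 11.24 and 10.88 in wild type. They fell by 1.41 ± 0.23, 1.34 ± 0.26 and 1.201 ± 0.27 (limma adjusted p 0.00347, 0.0124 and 0.0337), and all 3 lost the call without the first wild type array. SAL2 and AT1G76960 also lost it without the second wild type array, the first ex1/flu array or the intensity trend, and AT1G76960 without the filter. AT3G07950, a rhomboid-like membrane protein, and AT3G11500, a small nuclear ribonucleoprotein of the Sm type, fell by 1.43 ± 0.20 and 1.40 ± 0.24 (limma adjusted p 0.00127 and 0.0061). The 2 ex1/flu arrays of AT3G11500 stood apart, at 9.63 and 8.63, against 10.63 and 10.43 in wild type. Without the first wild type array its call was lost.

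**Figure D4:**
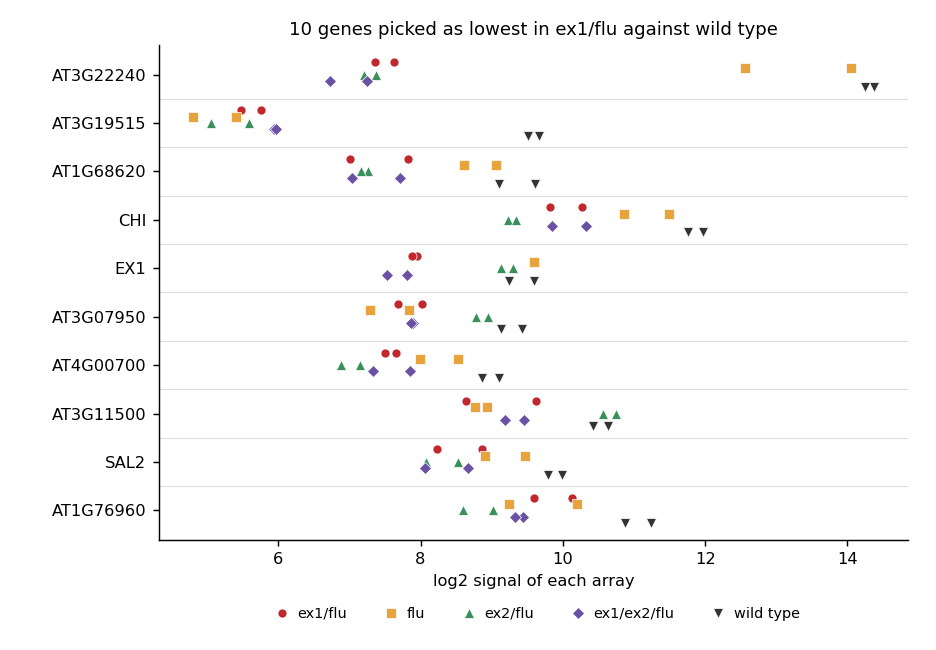
Log2 signal of each array (horizontal axis) for the 10 genes picked as lowest in ex1/flu against wild type, 2 arrays per genotype. AT3G22240 is at 7.36 and 7.62 in ex1/flu and at 14.37 and 14.24 in wild type, with the flu arrays at 14.05 and 12.56. For AT3G19515 the arrays of all 4 lines with the flu mutation lie far below wild type.

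Of the 10 lowest genes 4 lie within 4 Mb of FLU, the region where sequence of the Landsberg parent would be kept longest. This region holds 713 of the 7786 tested probe sets of 1 gene. Within that distance 24 of 713 tested probe sets of 1 gene were called (3.37%), 5 higher and 19 lower, against 1.17% over all tested probe sets of 1 gene. On the rest of chromosome 3, 5 of 870 were called (0.575%). A sequence difference under the probes and a difference in RNA level cannot be told apart on these arrays. Without the genes of this region 204 probe sets were called in ex1/flu against wild type, 99 higher and 105 lower.

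The genes on each side of FLU were also set against ex2/flu, which carries the same flu allele. In the direct test of ex1/flu against ex2/flu, made after these values were seen, 278 probe sets were called (1.93%) and 127 of those with 1 gene (1.63%), 0.0771% higher and 1.55% lower in ex1/flu. Before FLU, toward the start of the chromosome, 10 of 404 were called against wild type, and 6 of these also differed from ex2/flu, 5 of them lower and AT3G09540 higher. LHCB4.2 was at 12.74 and 12.87 in ex1/flu, and 13.99 on both arrays of ex2/flu. AT3G11500 was at 9.63 and 8.63 in ex1/flu and at 10.57 and 10.75 in ex2/flu. AT3G10860 was at 11.59 and 11.71 in ex1/flu and at 12.52 and 12.78 in ex2/flu, against 12.66 and 12.44 in wild type. For these genes the ex2/flu arrays stood near wild type, with differences from it of 0.02, 0.13 and 0.10. LHCB4.2 in flu, at 13.06 and 12.83, and in ex1/ex2/flu, at 12.94 and 12.85, stood near ex1/flu.

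After FLU, 14 of 309 were called against wild type, 2 higher and 12 lower, and 0 of them were called against ex2/flu, which does not show that the levels were alike. NAI2, a protein of endoplasmic reticulum bodies, was at 6.02 and 5.81 in ex1/flu, below the filter level, and at 7.64 and 8.10 in wild type, so that it was at least 1.39 lower in ex1/flu. UGT88A1 was at 10.26 and 10.12 in ex1/flu and 11.39 and 11.27 in wild type and fell by 1.15 ± 0.15 (limma adjusted p 0.000534). bHLH121, a transcription factor of the iron deficiency response, was at 8.18 and 8.32 in ex1/flu and 9.37 and 9.41 in wild type and fell by 1.14 ± 0.18 (limma adjusted p 0.00349). In ex2/flu minus wild type UGT88A1 and bHLH121 differed by -1.10 and -0.90, and NAI2, again below the filter level in ex2/flu, was at least 1.41 lower. In flu minus wild type AT3G22240 and UGT88A1 differed by -1.01 and -0.54 and were not called, whereas AT3G19515 was at least 3.12 lower. NAI2, bHLH121 and AT3G10860 were named after their values were seen. The comparisons with wild type all use the same wild type arrays. The genes were chosen on the ex1/flu arrays that also enter the comparison with ex2/flu, and whether the 2 sides of FLU differ was not tested.

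**Figure D5:**
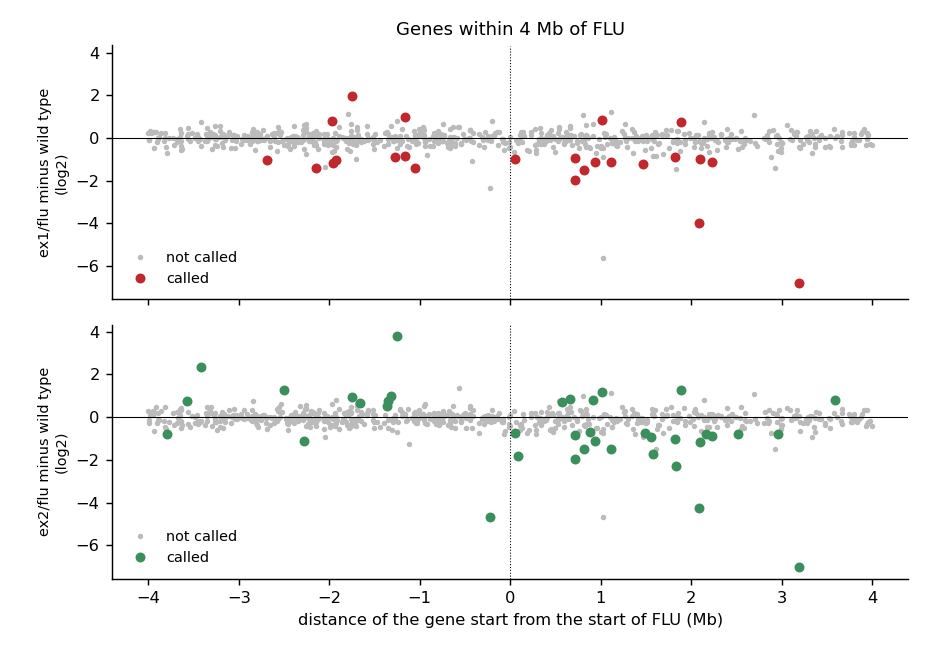
Log2 difference from wild type (vertical axis) of the tested probe sets of 1 gene against the distance of the gene start from the start of FLU (horizontal axis, Mb), for ex1/flu (upper panel) and ex2/flu (lower panel), which share the wild type arrays. Coloured points were called. Of the 7 decreases before FLU in ex1/flu, 5 were also lower than in ex2/flu, and the 12 after FLU, down to -6.82 for AT3G22240, were not called between the lines.

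Around EX1 on chromosome 4, 7 of 330 tested probe sets of 1 gene within 2 Mb were called (2.12%), 4 higher and 3 lower, EX1 among the lower. AT4G29780 and AT4G37290, described above, were among the higher. Both rose more in the lines that keep EX1, by 3.11 and 2.53 in flu and by 3.28 and 3.13 in ex2/flu. GAMMA-VPE, a vacuolar processing enzyme, was at 11.30 and 11.17 in ex1/flu and at 12.02 and 11.94 in wild type. It fell by 0.75 ± 0.13 (limma adjusted p 0.00639), with the call lost without either wild type array. It was also called lower than wild type in ex2/flu, which keeps EX1, and in ex1/ex2/flu, with differences of -0.90 and -0.71. In flu the difference was -0.19 and was not called.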

How the data were processed

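RNA of rosette leaves was measured on 10 ATH1 arrays. The deposited value is a signal intensity per probe set on a linear scale, made by the authors with GCOS 1.2 and MAS5, per the submitters' processing notes. With the lowest and highest values of each array left out, the mean signal was 499.8 on every array, so the arrays share a common scale. The scaling step itself, and any detection calls, are not given in the sources used. Control probe sets (64) were dropped, and of 22746 others the 14435 (63.5%) that reached their array's 40th percentile on at least 2 of 10 arrays were tested.

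Signals were log2-transformed with no offset. Normalization was left as deposited. One limma model (version 3.58.1, R 4.3.3) covered the 10 arrays, each genotype having its own mean, and eBayes used a trend with intensity, with 5 residual and 10 prior degrees of freedom. P-values were adjusted by Benjamini-Hochberg over the 14435. On simulated data for ex1/flu against wild type (14435 probe sets), the fit recovered 89 of 100 2-fold changes and 100 of 100 changes of log2 2, and called 15 unchanged probe sets. A genotype with both arrays under the filter level gets a bound against that level, with the adjusted p of the measured values. Figures were drawn with matplotlib 3.10.9.

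The annotation table used gives no genome build. It assigned 13513 probe sets to 1 gene and 503 to several, and did not list 8730. Loci were named and placed through RefSeq TAIR10.1, in which 7786 tested probe sets of 1 gene matched 7717 loci. Named were EX1, the 15 highest and 10 lowest called genes of ex1/flu against wild type with separate groups and a higher-genotype mean at or above the median of the tested probe sets, up to 4 called members of each list (otherwise the 2 of largest difference), and the 6 highest and 6 lowest EXECUTER-dependent genes. Other genes were named after their values were seen. The members and lists were chosen with earlier results of these data known. Replicates are separate pools of plants, per the labels.

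Alternatives were quantile normalization, no filter or a 60th percentile filter, an offset of 32, no intensity trend, only the arrays compared, the replicate number as a block, and leaving out each array.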

Additional observations from a re-analysis of the deposited data

How the results depend on the processing

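Without the filter on dim probe sets 147 were called in ex1/flu against wild type and 0 in ex1/flu against ex1/ex2/flu. Without the intensity trend the counts were 151 and 0, and 106 in ex1/flu against flu. With only the arrays compared, 1 was called in ex1/flu against ex1/ex2/flu. The cause was not tested. Leaving out each of the 10 arrays gave 97 to 245 for ex1/flu against wild type, 0 to 17 for ex1/flu against ex1/ex2/flu, 58 to 243 for ex1/flu against flu, and 33 to 64 EXECUTER-dependent probe sets called higher in ex1/flu. An array left out leaves its genotype with 1 array, which is assumed to vary like the others.

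With the replicate number as a block the counts were 227, 6, 214 and 65. Same-numbered arrays deviated together by more than 0.1 in 1 of 10 pairs of genotypes (ex1/flu and ex2/flu, 0.431). The other pairs lay between -0.086 and 0.088, so the numbers do not pair the samples across all genotypes. The test of ex1/flu against ex2/flu treated the arrays as independent, and what these 2 lines share by replicate number was not tested. Among 55 named genes 38 were called, 24 of them in each of the 17 alternatives. Of 17 not called, 3 gained a call under an alternative, and no call changed direction. The median replicate SD of 0.181 in ex1/flu limits small differences.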

Other observations

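Some called genes outside the lists have known roles, and they were named after their values were seen. RING1, a ubiquitin ligase of the defence response, was at 12.65 and 12.92 in ex1/flu and at 13.42 and 13.45 in wild type and fell by 0.65 ± 0.13 (limma adjusted p 0.018). NDB2, an alternative NAD(P)H dehydrogenase of mitochondria, was at 8.33 and 8.40 in ex1/flu and at 9.35 and 9.43 in wild type and fell by 1.02 ± 0.19 (limma adjusted p 0.00947). IAGLU, a glucosyltransferase of the auxin indole-3-acetic acid, was at 9.09 and 8.80 in ex1/flu and at 7.97 and 8.15 in wild type and rose by 0.88 ± 0.16 (limma adjusted p 0.00899). For these genes the groups did not overlap. In ex1/ex2/flu minus the same wild type arrays they differed by -1.03, -0.69 and 0.83.

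AT3G28540, an AAA-type ATPase gene like AT3G28510 and the singlet oxygen reporter AT3G28580, was at 9.25 and 9.27 in ex1/flu and at 10.14 and 10.16 in wild type and fell by 0.89 ± 0.18 (limma adjusted p 0.0215). It was named after its values were seen.

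The 2 ex1/flu arrays differed from each other for genes of leucine breakdown. IVD was at 9.02 and 10.05 in ex1/flu, against 9.01 and 9.28 in wild type, and MCCA at 9.74 and 10.51 in ex1/flu, against 9.44 and 9.72 in wild type. MCCB ran the other way in ex1/flu, at 10.56 and 9.91, against 9.998 and 10.26 in wild type. Between the ex1/flu arrays 1.81% of tested probe sets differed by at least 2-fold, and between the wild type arrays 1.26%.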
